A study of Mus musculus with 24 samples.

Results

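Hepcidin and the genes that set, sense, carry and store liver iron were followed in mouse livers after 20 weeks of a fibrosis-inducing diet. The 10 genes were chosen by symbol: Hamp and Hamp2, which encode hepcidins, Bmp6, Id1 and Smad7 of the pathway that drives hepcidin, the transferrin receptors Tfrc and Tfr2, the iron exporter Slc40a1 and the ferritin chains Fth1 and Ftl1. All 10 were found among the 56205 gene identifiers of the deposited table, and all 10 were among the 17913 genes that passed the filter on low counts. C57BL/6J mice of both sexes, 8 to 10 weeks old at the start, received either a diet rich in palm oil fat, fructose and cholesterol (FFD, 12 libraries), or its control diet (12 libraries). Both groups were on their diet for 20 weeks, and the labels name no other difference between them. Poly(A) RNA of whole liver was sequenced to between 14468418 and 22112552 counts per library.

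Hepcidin is a peptide hormone made by hepatocytes that binds ferroportin, the product of Slc40a1, and causes its degradation, so that less iron leaves macrophages, the gut and the liver. Its transcription follows iron through BMP6, which is made mainly by sinusoidal endothelial cells and acts on hepatocytes through SMAD proteins, while IL-6 acts through STAT3 and demand from red blood cell formation lowers it through erythroferrone. Ferritin, ferroportin and the transferrin receptor are further set after transcription by iron regulatory proteins, which bind iron-responsive elements in their mRNAs. This binding blocks translation from a 5′ element, as in ferritin, and stabilises the mRNA from 3′ elements, as in Tfrc, so that the mRNA level of ferritin need not follow its protein.

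The libraries fell into 2 sets of 12 that the labels do not name. In replicates 1 to 6 of both diets Xist had between 2664 and 6285 counts and the Y-linked Ddx3y had 0, and in replicates 7 to 12 Xist had at most 3 counts and Ddx3y between 448 and 1016. They are called the Xist libraries and the Ddx3y libraries, and values are given within each set because Hamp2 is known in mice for a higher liver level in females. Some libraries stood apart from their group. Control replicate 10 had the fewest counts, the fewest genes with a count (16646, against 17406 to 19559 in the others) and 3.65% of counts from the mitochondrial genome, against 6.04 to 8.68% in the others. FFD replicate 9 lay outside the range of the other 11 FFD libraries for 38.8% of tested genes, and FFD replicate 3 did so for 28.5%, against 6.60 to 18.2% for the remaining FFD libraries. Summed levels of 6 hepatocyte markers ran from 38093 to 126727 CPM (counts over a library's total, scaled by the TMM method), so hepatocyte transcripts were abundant in all 24 libraries.

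Hamp and Hamp2 lie 19848 bases apart on chromosome 7 in the same direction, and the 60 bases that end 61 bases before each transcription start are shown because the copies differ there inside a short element. Capitals mark GGCGCC, known as the BMP-responsive element of the hepcidin promoter, and TTCNNNGAA, the STAT motif (both strands searched, no overlap between them). The windows are chr7:30944090-30944149 for Hamp and chr7:30924242-30924301 for Hamp2, both on the minus strand of GRCm38 (RefSeq). The starts used were 30944029 for Hamp and 30924181 for Hamp2. In GENCODE M21 the Hamp2 gene reaches to 30924681, so its window lies inside that gene and upstream only of the start used here.
Hamp: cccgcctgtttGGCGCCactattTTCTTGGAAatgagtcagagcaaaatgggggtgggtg
Hamp2: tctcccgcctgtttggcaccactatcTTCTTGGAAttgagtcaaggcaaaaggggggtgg
Over the 250 bases before the starts the genes were 88.5% identical. Counted from 1 at the 5′ end of the Hamp element, Hamp2 carried the difference G4A, so that GGCGCC was present only in Hamp, while the STAT motif was present in both. GGCGCC was found in the same window of 10.8% of 27025 genes, and the STAT motif in 8.13%. Of the other 5 genes matched in the promoter table, Tfrc also held GGCGCC in 1 of its 2 windows. These are matches of letters in a window and not measured binding. In GRCm38 (GENCODE M21) 9 of the genes lie at chr7:30942368-30944032 (Hamp), chr7:30922372-30924681 (Hamp2), chr13:38345107-38500302 (Bmp6), chr2:152736251-152737410 (Id1), chr16:32608920-32632794 (Tfrc), chr5:137569840-137587481 (Tfr2), chr1:45908068-45926523 (Slc40a1), chr19:9980598-9985098 (Fth1) and chr7:45457944-45459884 (Ftl1).

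A second kind of sequence separates the storage and uptake genes. The coding transcripts of GENCODE M21 were searched for a bulged C, 5 paired bases, the loop CAGTGN and 5 paired bases. The last loop base was not G, and G paired with T was allowed. Smad7 was left out when matches were listed, so whether it holds the pattern is not reported here. Among the other genes the pattern was found in the 5′ UTR of Fth1, Ftl1 and Slc40a1 and 4 times in the 3′ UTR of Tfrc. It was found in the 5′ UTR of 0.0822% and in the 3′ UTR of 0.397% of 21894 genes. Loops are in capitals.
Fth1: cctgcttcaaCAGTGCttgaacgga
Ftl1: cttgcttcaaCAGTGTttgaacgga
Slc40a1: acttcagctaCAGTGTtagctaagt
Tfrc: ttatcgggagCAGTGTcttccataa
The sites lie at chr19:9982734-9982758, chr7:45459781-45459805, chr1:45925467-45925491 and, for the Tfrc match shown, chr16:32631600-32631624 (GRCm38).

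Hamp was the only one of the 10 genes that passed the test, and it fell. Genes were called by edgeR's quasi-likelihood test at an FDR of at most 0.01 and an absolute log2FC over 0.5, and 4.99% of all tested genes were called lower and 13.2% higher on this rule. Of the 10 genes 1 was called lower and 0 higher; at an unadjusted p below 0.05, 5 were lower and 2 higher. DESeq2 called 2 lower and 0 higher (6 and 1 unadjusted), and limma-voom 1 lower and 0 higher (5 and 1 unadjusted). At an FDR of at most 0.05 with no limit on fold, Hamp, Tfr2, Smad7, Id1 and Bmp6 were lower and Fth1 and Tfrc higher, 5 and 2 of the 10 genes beside 18.9% and 20.7% of all tested genes. With a limit of 1 on the log2 scale, Hamp alone was called, beside 1.21% lower and 9.43% higher over all genes. None of the 10 genes had all 12 FFD libraries on 1 side of all 12 control libraries, which held for 1.48% of tested genes upward and 0.402% downward. In whole liver, fewer cells of a type and less RNA per cell cannot be told apart.

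Hamp ranged from 1.71 CPM through a median of 273 to 431 in the 12 FFD libraries, and from 106 through 902 to 2669 in the 12 control libraries. All but 1 of the control libraries lay above every FFD library, the exception being control replicate 11 with 106 CPM, and FFD replicate 3 lay far below all others with 1.71 CPM (32 counts). The mean was 261 ± 132 CPM (SD, n = 12) on the FFD and 991 ± 616 (SD, n = 12) on the control diet. Hamp fell 3.805-fold (log2FC -1.93, SE 0.45, FDR = 0.0015). Without FFD replicate 3 the log2FC was -1.80 (SE 0.32, FDR = 9.3e-05), and without that library and control replicates 10 and 11 it was -1.68 (SE 0.20, FDR = 2.1e-06). These libraries hold the lowest FFD value and the lowest and highest control values of Hamp itself. They were chosen after seeing the data, so the smaller SE and FDR without them are no added support. Over all 24 fits that left out 1 library the log2FC of Hamp ran from -2.04 to -1.69.

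The difference in Hamp had the same direction in both sets. In the Xist libraries it spanned 1.71 to 429 CPM on the FFD and 668 to 1457 on the control diet, without overlap, and the log2FC was -1.78 (SE 0.64, FDR = 0.071). In the Ddx3y libraries it spanned 129 to 431 CPM on the FFD and 106 to 2669 on the control diet, and the log2FC was -2.08 (SE 0.65, FDR = 0.011). In this fit of both sets neither passed the threshold, where 6 libraries stood against 6. With each set fitted alone, Hamp was called lower in the Ddx3y libraries (log2FC -2.06, FDR = 0.0067) and not in the Xist libraries (-1.77, FDR = 0.074), so the call within the Ddx3y libraries turned on the fit. The test of the difference between the sets gave a log2 value of -0.30 (SE 0.88, FDR = 0.88). Between the sets, the log2 difference of Ddx3y against Xist libraries was 0.11 (SE 0.62) on the control diet and -0.18 (SE 0.62) on the FFD.

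**Figure D1:**
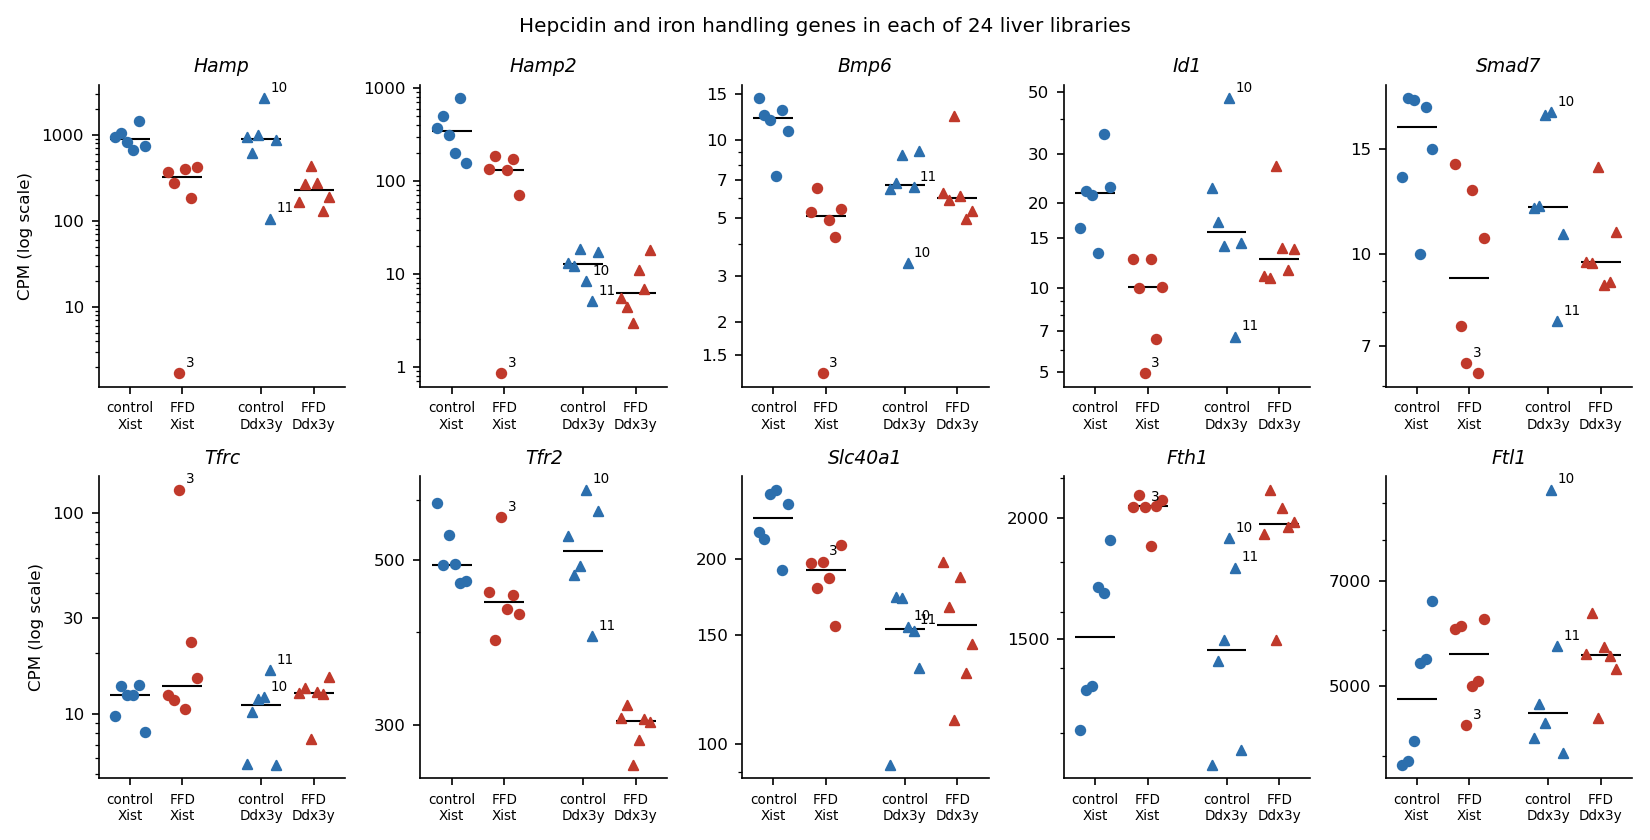
Levels of the 10 genes in CPM (log axis) in each of the 24 liver libraries, grouped by diet (blue, control; red, FFD) and set (circles, Xist libraries; triangles, Ddx3y libraries), with the median of each group as a line and FFD replicate 3, control replicate 10 and control replicate 11 labelled by number. FFD replicate 3 is at 1.71 CPM for Hamp and 131 CPM for Tfrc, Hamp2 is far lower in the Ddx3y libraries of both diets, and Tfr2 on the FFD is at or below 319 CPM in every Ddx3y library.

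Hamp2 differed between the sets, and its difference between the diets did not pass the test. In the Xist libraries it spanned 0.853 to 185 CPM on the FFD (median 133) and 155 to 778 on the control diet (median 343). In the Ddx3y libraries it spanned 2.92 to 18.2 CPM on the FFD (median 6.17) and 5.10 to 18.5 on the control diet (median 12.6). On the control diet all 6 Ddx3y libraries lay below all 6 Xist libraries, as did 2.78% of tested genes (2.12% lay above), and on the FFD they did so apart from FFD replicate 3, which had 16 counts. With the diet as a term of the fit, Hamp2 was 21.04-fold lower in the Ddx3y libraries (log2 difference -4.40, SE 0.50, FDR = 4.9e-07), where 2.49% of tested genes were called lower and 2.09% higher, and it was the only member of the 10 called.

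For the diet, Hamp2 had a log2FC of -1.69 (SE 0.87, FDR = 0.13), which did not pass. With the set as a term of the fit the log2FC was -1.20 (SE 0.45, FDR = 0.033). Within the Xist libraries it was -1.74 (SE 0.60, FDR = 0.057) and within the Ddx3y libraries -0.60 (SE 0.61, FDR = 0.46), and the test of their difference did not pass (difference 1.14, SE 0.85, FDR = 0.44). Hamp and Hamp2 are near-identical, so reads could have been split between them in the authors' counting and small values of Hamp2 are uncertain. Hamp2 made up 14.2 to 48.1% of the counts of both genes in the Xist libraries and 0.312 to 8.83% in the Ddx3y libraries.

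Bmp6, the ligand of the iron signal, fell on the FFD in the Xist libraries, and the test of the difference between the sets was short of the threshold. In the Xist libraries it spanned 1.28 to 6.53 CPM on the FFD (median 5.10) and 7.27 to 14.4 on the control diet (median 12.1). All 6 FFD libraries lay below all 6 control libraries, which held for Hamp, Bmp6 and Id1 here and for 2.39% of tested genes (3.51% in the other direction), and Bmp6 fell 2.52-fold (log2FC -1.33, SE 0.28, FDR = 0.0031), where 0.854% of tested genes were called lower and 2.76% higher. Summed markers of sinusoidal endothelial cells, in which Bmp6 is mainly made, were 292 to 381 CPM in those FFD libraries (292 to 320 without replicate 3) and 282 to 374 in the control libraries, and their part in the difference was not tested.

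In the Ddx3y libraries Bmp6 spanned 4.97 to 12.3 CPM on the FFD (median 5.98) and 3.36 to 9.08 on the control diet (median 6.70). These ranges overlapped, with a log2FC of -0.02 (SE 0.27, FDR = 0.97). The difference of the diet effect between the sets was 1.31 on the log2 scale (SE 0.39, FDR = 0.030), short of 0.01 but past it with DESeq2 (1.35, FDR = 0.0085), and it was 0.95 (FDR = 0.031) without FFD replicate 3 and control replicates 10 and 11. Control replicate 10 had the lowest control value and FFD replicate 9 the highest FFD value, and both are Ddx3y libraries. Over all 24 libraries the log2FC was -0.70 (SE 0.23, FDR = 0.019), and it passed the threshold without FFD replicate 9 (-0.86, FDR = 0.0028) or without control replicate 10 (-0.77, FDR = 0.0060). In mean level the 12 FFD libraries had 5.71 ± 2.496 CPM and the 12 control libraries 9.24 ± 3.30 (SD), or 24 to 293 counts per library, so single values of Bmp6 carry more counting error than those of Hamp.

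Id1 and Smad7 are transcribed in response to BMP signals in hepatocytes and other liver cells, Smad7 as an inhibitor that feeds back on the pathway. Id1 ranged from 4.96 through a median of 11.3 to 27.1 CPM on the FFD and from 6.68 through 19.3 to 47.4 on the control diet. The lowest FFD value was that of replicate 3 and the highest that of replicate 9, while control replicates 11 and 10 were the lowest and highest of their diet, and the groups overlapped. The log2FC was -0.80 (SE 0.25, FDR = 0.013), just short of the threshold, and it passed without FFD replicate 9 (-0.97, FDR = 0.0020), without control replicate 11 (-0.89, FDR = 0.0037), and with the set as a term (-0.83, FDR = 0.0092). Within the Xist libraries, where 9.49 ± 3.16 CPM stood against 21.9 ± 7.52 (SD, n = 6), the fit of both sets gave Id1 a log2FC of -1.20 (SE 0.34, FDR = 0.023), and in the Ddx3y libraries it was -0.46 (SE 0.33, FDR = 0.28). With the Xist libraries fitted alone, Id1 was called lower (-1.19, FDR = 0.0051).

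Smad7 ranged from 6.30 through a median of 9.68 to 14.1 CPM on the FFD and from 7.70 through 14.2 to 18.3 on the control diet. The ranges overlapped over much of their length. Its log2FC of -0.49 (SE 0.15, FDR = 0.011) missed both limits narrowly and passed them in the fits without FFD replicate 1 (-0.55, FDR = 0.0055), 4 (-0.53, FDR = 0.0081) or 9 (-0.55, FDR = 0.0059), or without control replicate 4 (-0.53, FDR = 0.0072), 11 (-0.55, FDR = 0.0031) or 12 (-0.53, FDR = 0.0091). Tests of the difference between the sets gave 0.74 (SE 0.47, FDR = 0.36) for Id1 and 0.37 (SE 0.30, FDR = 0.49) for Smad7.

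**Figure D2:**
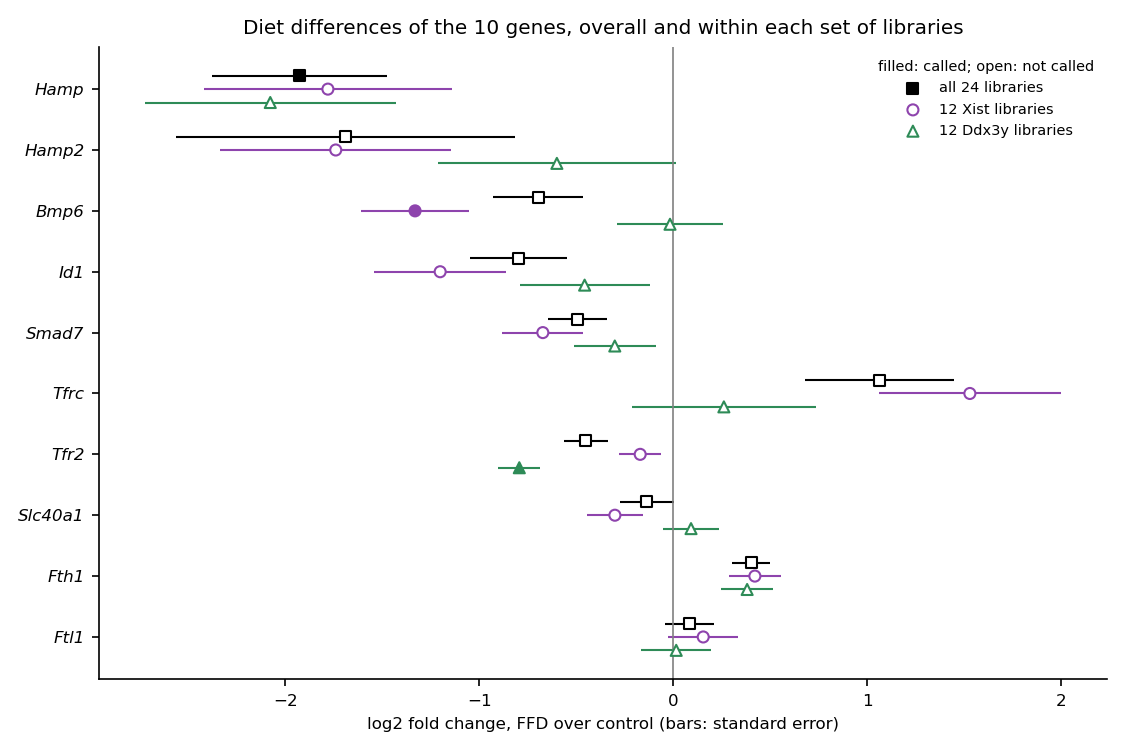
Log2 fold changes of FFD over control (points) with standard errors (bars) for the 10 genes, over all 24 libraries (black squares), in the 12 Xist libraries (purple circles) and in the 12 Ddx3y libraries (green triangles), the latter both from the fit of both sets; filled symbols passed the threshold. Hamp passed over all libraries, Bmp6 only in the Xist libraries and Tfr2 only in the Ddx3y libraries, and the Tfrc value in the Xist libraries includes FFD replicate 3.

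Tfr2, a hepatocyte receptor that senses transferrin and feeds into hepcidin control, differed by set. In the Ddx3y libraries it spanned 266 to 319 CPM on the FFD (median 305) and 395 to 620 on the control diet (median 514). The groups did not overlap, as was so for 9.66% of tested genes in this set (12.6% in the other direction), and Tfr2 fell 1.73-fold (log2FC -0.79, SE 0.11, FDR = 2.4e-06), where 10.5% of tested genes were called lower and 16% higher. Summed hepatocyte markers were 38093 to 46397 CPM in these FFD libraries and 76354 to 91674 in these control libraries, also without overlap, and their part in the level of Tfr2 was not tested. In the Xist libraries it spanned 390 to 569 CPM on the FFD (median 439) and 465.8 to 595 on the control diet (median 492), with overlap and a log2FC of -0.17 (SE 0.11, FDR = 0.35).

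On the FFD the 6 Ddx3y libraries lay below all 6 Xist libraries for Tfr2, as for 5.82% of tested genes (4.71% lay above), with a log2 difference of -0.60 (SE 0.11, FDR = 0.00050); Tfr2 and Hamp2 were called lower there, as were 3.42% of tested genes, and 2.97% were called higher. The test of the diet effect between the sets called 0 of the 10 genes by edgeR, beside 2.57% of tested genes called higher and 1.47% lower, and at an unadjusted p below 0.05 it found Bmp6 and Tfr2. DESeq2 called both, and limma-voom called Tfr2. For Tfr2 the diet effect differed between the sets by -0.62 on the log2 scale (SE 0.15), and the FDR of 0.0102 lay at the threshold. It passed in the fits without FFD replicate 2 (-0.68, FDR = 0.0082) or 8 (-0.66, FDR = 0.0097), without control replicate 1 (-0.67, FDR = 0.0065) or 11 (-0.69, FDR = 0.0022), and with DESeq2 (-0.61, FDR = 0.0015), while scaling by library totals gave -0.25 (FDR = 0.19). Over all 24 libraries the log2FC was -0.45 (SE 0.11, FDR = 0.0027), which passed in FDR and missed in fold, and without FFD replicate 3 it was -0.52 (SE 0.10, FDR = 0.00032) and passed in both. That library had 569 CPM of Tfr2, the highest of the FFD libraries.

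Tfrc encodes the receptor through which cells take up transferrin-bound iron, and its difference rested on a single library. It ranged from 7.48 through a median of 12.8 to 131 CPM on the FFD and from 5.59 through 11.99 to 16.5 on the control diet. FFD replicate 3 had 131 CPM (2449 counts), and the other 11 FFD libraries lay between 7.48 and 22.7, a range that overlapped that of the control libraries. The log2FC over all libraries was 1.06 (SE 0.38, FDR = 0.029), and without FFD replicate 3 it was 0.27 (SE 0.17, FDR = 0.21). DESeq2, which replaced the count of that library by default, gave 0.28 (SE 0.17, FDR = 0.18). None of these values passed the threshold.

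Slc40a1, the ferroportin gene, differed more between the sets than between the diets. It spanned 109 to 211 CPM on the FFD (median 182) and 92.4 to 259 on the control diet (median 182), with overlap over most of the range. The log2FC was -0.14 (SE 0.14, FDR = 0.46), and scaling by library totals turned it to 0.12 (FDR = 0.54). On the control diet, however, the Ddx3y libraries spanned 92.4 to 173 CPM and the Xist libraries 192 to 259, without overlap. Slc40a1 was 1.58-fold lower there (log2 difference -0.66, SE 0.14, FDR = 0.0027), as 3.5% of tested genes were called lower and 2.24% higher there. On the FFD the same difference was -0.27 (SE 0.14, FDR = 0.23), and the test between the diets gave 0.39 (SE 0.20, FDR = 0.24).

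Fth1 and Ftl1 encode the heavy and light chains of ferritin, the iron store of the cell. Fth1 ranged from 1495 through a median of 2051 to 2139 CPM on the FFD and from 1113 through 1461 to 1905 on the control diet. In 11 of the 12 FFD libraries it was at or above 1872 CPM, the exception being FFD replicate 9 with 1495. The groups overlapped, since control replicates 6 (1897) and 10 (1905) lay above FFD replicates 4 and 9. Its log2FC was 0.40 (SE 0.10, FDR = 0.0019), past the limit on FDR and short of that on fold, with 0.42 (SE 0.14) in the Xist and 0.38 (SE 0.14) in the Ddx3y libraries.

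Ftl1 ranged from 4417 through a median of 5528 to 6335 CPM on the FFD and from 3890 through 4587 to 9397 on the control diet. The highest value was that of control replicate 10, and the FFD range lay wholly within that of the control libraries. The log2FC was 0.08 (SE 0.13, FDR = 0.64). Counts of Ftl1 over those of Fth1, a ratio that no scaling touches, ran from 2.15 to 3.02 on the FFD with a median of 2.84, and between 2.96 and 4.93 in the control libraries with a median of 3.24. All FFD libraries but replicates 6 and 9 lay below every control library in this ratio, which was examined after the values were seen and is given without a test. Both genes have processed pseudogenes, so the counting could have split some of their reads.

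Scaling by library totals in place of TMM raised every log2FC. With TMM the median log2FC over tested genes was -0.03, and with library totals it was 0.26. Relative to these medians Hamp had -1.90 and -1.82, Bmp6 -0.66 and -0.65, Tfr2 -0.42 and -0.43, Slc40a1 -0.10 and -0.13, and Fth1 0.43 under both scalings. Before this correction, totals gave Bmp6 -0.39 (FDR = 0.25), Id1 -0.42 (FDR = 0.19), Smad7 -0.19 (FDR = 0.39), Tfr2 -0.18 (FDR = 0.11) and Hamp -1.56 (FDR = 0.0051), and under totals Fth1 (0.69, FDR = 3.9e-06) and Tfrc (1.28, FDR = 0.0060) passed the threshold.

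A two-sided permutation test of single genes on log2(CPM + 1), unadjusted and with 100000 resamples, gave p = 0.00018 for Hamp, 0.00024 for Fth1, 0.00055 for Tfr2, 0.0062 for Smad7, 0.0074 for Bmp6 and 0.0095 for Id1. It gave p = 0.065 for Tfrc, 0.15 for Hamp2, 0.32 for Ftl1 and 0.50 for Slc40a1. Without FFD replicate 3 the permutation p was 0.012 for Smad7, 0.017 for Bmp6 and 0.019 for Id1. Within the Xist libraries the exact permutation test gave p = 0.0022 for Hamp, Bmp6 and Id1, the smallest that 6 against 6 allow. It gave p = 0.024 for Smad7 there. In the Ddx3y libraries it gave p = 0.039 for Hamp, 0.94 for Bmp6, 0.49 for Id1 and 0.22 for Smad7.

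Per length of their main coding transcript, the genes differed widely in level on the control diet. Ftl1 had a mean of 5337 CPM per kilobase, Hamp 2418, Fth1 1616, Hamp2 457, Tfr2 175, Slc40a1 56.0, Id1 22.6, Smad7 3.30, Bmp6 2.57 and Tfrc 2.25. Neighbours in this order overlapped in their ranges over the 12 libraries, apart from Tfr2 above Slc40a1 and Id1 above Smad7. On the FFD the mean of Hamp was 635 CPM per kilobase, below the 2134 of Fth1 and with no overlap between their ranges.

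The library that stood apart for Hamp and Tfrc did so for much of iron handling. In FFD replicate 3, compared with the other 11 FFD libraries, 5 of the 10 genes lay below all others (Hamp, Hamp2, Bmp6, Id1 and Ftl1), 2 above all others (Tfrc and Tfr2) and 3 within their range, beside 13.04% below and 15.5% above over all tested genes. Hamp was 162-fold below the median of the other 11 with 1.71 against 277 CPM, Bmp6 was 4.23-fold below with 1.28 against 5.42, and Tfrc was 10.3-fold above. Smad7, Slc40a1 and Fth1 lay within the range, and Fth1 sat at the median, with 2053 against 2050 CPM.

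All 5 markers of red blood cells and their precursors were above every other FFD library in that library. Hbb-bs, a beta-globin, had 1916 CPM against 49.8 to 245, and Slc4a1 (the anion exchanger of red cells) 47.2 against at most 0.558. The summed level of the list was 5169 CPM against 141 to 674 in the other FFD and 403 to 1111 in the control libraries. Erfe, the erythroferrone gene, was outside the tested genes, with 23 counts (1.23 CPM) there against at most 0.211 CPM in the other FFD libraries.

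The 7 acute-phase genes that respond to IL-6 were also above every other FFD library there, with a summed level of 16747 CPM against 6215 to 9667, while the control libraries had 7676 to 17029. Saa1 (serum amyloid A) had 998 CPM against 77.2 to 275. Trf, the transferrin gene, had 45475 CPM against 14724 to 26562, and Hpx (hemopexin, the heme carrier of plasma) 12802 against 4178 to 6354. Granule genes of neutrophils were among the 25 genes farthest above the other libraries, such as S100a9 with 81.9 CPM against at most 1.93 and Mpo with 37.4 against at most 0.435. Summed hepatocyte markers were 88190 CPM there, against 38093 to 82308 in the other FFD libraries, and Alb alone made up 72531 CPM of that sum. Of these markers 2 (Alb and Tat) lay above all other FFD libraries and 4 lay within their range. The part of these cells and responses in the level of Hamp or Tfrc was not tested, and the library was kept in all main fits.

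**Figure D3:**
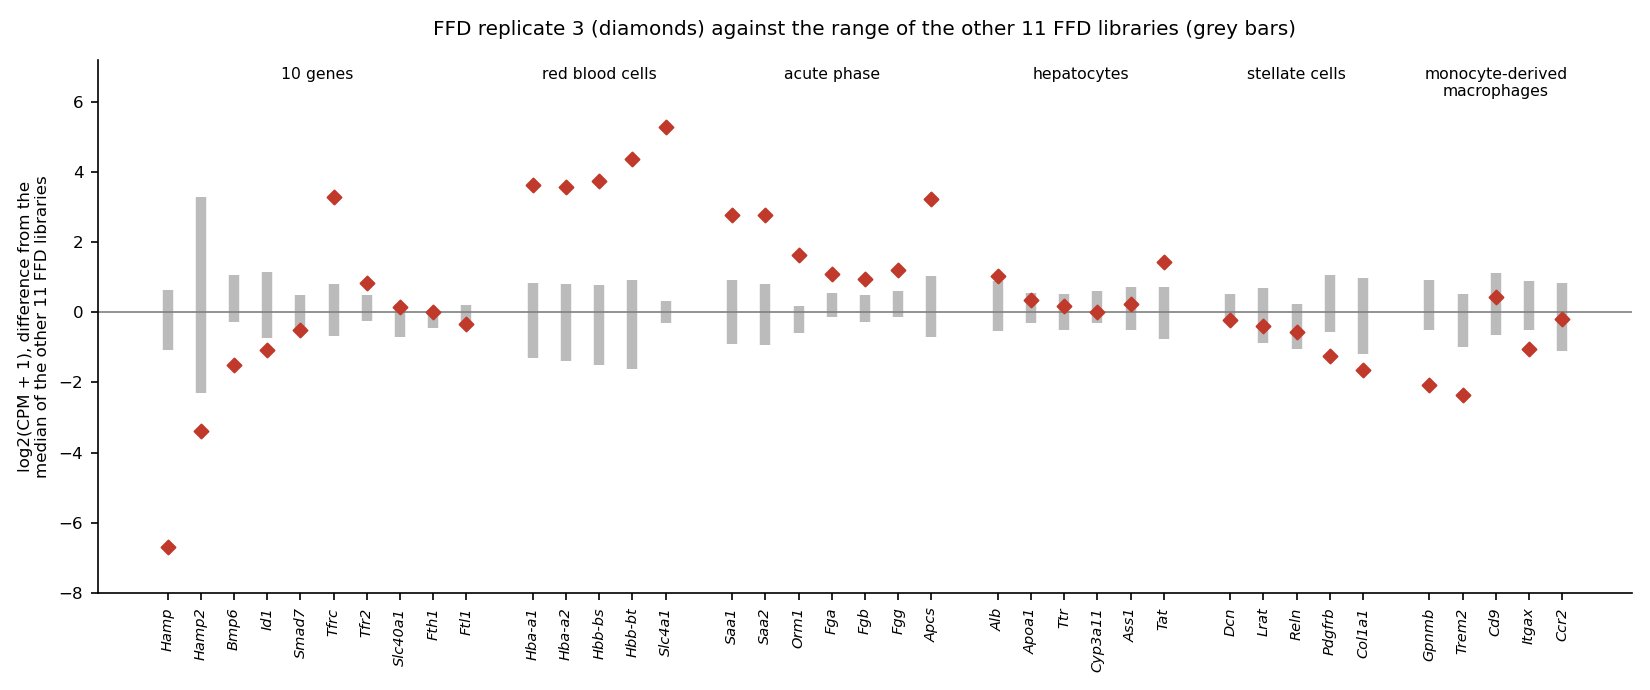
Difference of FFD replicate 3 (diamonds) from the median of the other 11 FFD libraries, in log2(CPM + 1), for the 10 genes and 5 marker lists; grey bars span the other 11 libraries. Hamp lies 6.68 below and Tfrc 3.27 above the median, and all red blood cell and acute-phase markers lie above the bars.

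Whether the genes moved together from mouse to mouse was asked after removing the diet and the set. For each library the deviation of log2(CPM + 1) from the mean of its diet and set was taken, and 8 pairs were compared over the 24 libraries with both Pearson's r and Spearman's rho, permuted within diet and set and adjusted over all 16 values. Hamp followed Id1 with r = 0.69 (permutation p = 2e-05, adjusted p = 0.00011) and rho = 0.74 (permutation p = 5e-05, adjusted p = 0.00016). Leaving out the 2 libraries farthest from the median of Hamp, FFD replicate 3 and control replicate 10, gave r = 0.78. Here and below, farthest refers to the level before the diet and the set were removed. Control replicate 11, among the lowest in deviation, therefore stayed in. Without control replicates 10 and 11 and FFD replicate 3, r was 0.70. Within the 4 groups of diet and set r lay between 0.75 and 0.91.

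Hamp followed Smad7 with r = 0.61 (permutation p = 0.00057, adjusted p = 0.0013) and rho = 0.58 (permutation p = 0.0016, adjusted p = 0.0032), with r = 0.68 without the same 2 libraries and 0.58 to 0.88 within the 4 groups. Id1 followed Smad7 with r = 0.77 (permutation p = 5e-05, adjusted p = 0.00016) and rho = 0.73 (permutation p = 0.00032, adjusted p = 0.00085), with r = 0.73 without the 2 farthest libraries and 0.75 to 0.88 within the groups. In each of these 3 pairs r was positive in every group of diet and set, which was not tested within the groups of 6 libraries.

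For the ligand the sign of r differed between the groups. Hamp and Bmp6 had r = 0.57 (permutation p = 0.060, adjusted p = 0.080) and rho = 0.52 (permutation p = 0.020, adjusted p = 0.035), with r = 0.51 without FFD replicate 3 and control replicate 10. Without FFD replicate 3 alone r was 0.07 (adjusted p = 0.85), and without it and control replicates 10 and 11 r was 0.67. Within the 4 groups r ran from -0.38 to 0.96, so the value turned on which of these libraries were used. Bmp6 had r = 0.21 with Id1 (permutation p = 0.34, adjusted p = 0.34; rho = 0.33, permutation p = 0.12, adjusted p = 0.15; 0.05 without the 2 farthest libraries; -0.70 to 0.91 within the groups) and r = 0.35 with Smad7 (permutation p = 0.16, adjusted p = 0.18; rho = 0.30, permutation p = 0.17, adjusted p = 0.18; 0.25 without the 2 farthest libraries; -0.32 to 0.86 within the groups).

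Hamp and Hamp2 had r = 0.79 (permutation p = 0.034, adjusted p = 0.050) and rho = 0.52 (permutation p = 0.034, adjusted p = 0.050), and r was 0.31 without the 2 farthest libraries and 0.18 without FFD replicate 3 alone, so the relation rested on that library. Within the 4 groups r ran from -0.43 to 0.95. Fth1 and Ftl1 had r = 0.85 and rho = 0.85 (each with permutation p = 1e-05, the smallest that 100000 resamples allow, and adjusted p = 8e-05), with r = 0.83 without the 2 farthest libraries and 0.44 to 0.98 within the groups.

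**Figure D4:**
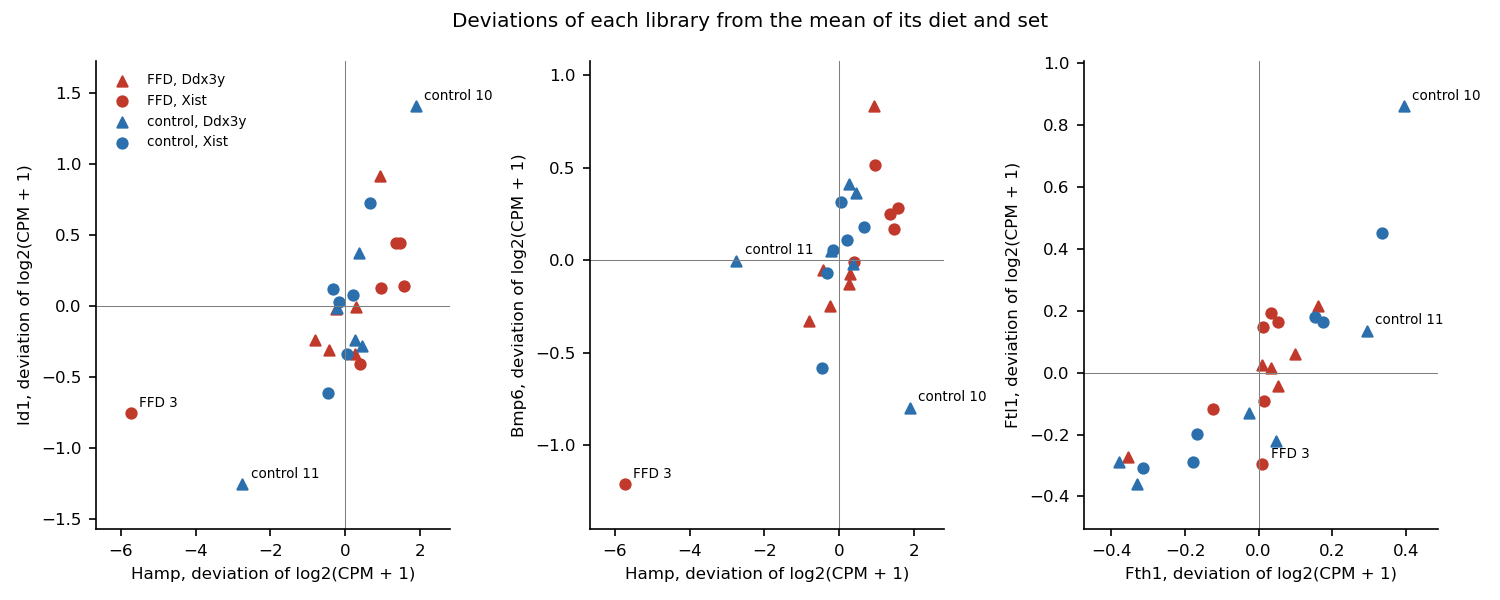
Deviation of each of the 24 libraries from the mean of its diet and set in log2(CPM + 1), for Hamp against Id1, Hamp against Bmp6 and Fth1 against Ftl1, coloured by diet and shaped by set as labelled. FFD replicate 3 and control replicate 11 lie lowest and control replicate 10 highest on the Hamp axis; with all 24 libraries r is 0.69, 0.57 and 0.85.

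Among 12770 tested genes with a mean of at least 1 CPM, the 5 whose deviations were most like those of Hamp over the 24 libraries were Id2 (r = 0.86), Serpinf1 (0.84), Dapk2 (0.81), Hao2 (0.80) and Tcea3 (0.80). Without FFD replicate 3 Hao2 had r = 0.02, and the 5 closest genes were Id1 (0.85), Agxt (0.83), Id3 (0.83), Serpinf2 (0.80) and Ivd (0.80). Id1, Id2 and Id3 encode related inhibitors of DNA binding, and Id1 was already among the 10 genes. For Hamp2 the closest were Hao2 (0.87), Adra1b (0.84), Cers2 (0.82), Serpina6 (0.81) and Gstt3 (0.79). Without FFD replicate 3 none of these 5 was among the closest, which were then Slc39a14 (0.78), Cdc40 (0.75), Dpyd (0.74), Mapk14 (0.74) and Chd7 (0.74). These values are a description and were not tested.

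Of 73 further genes of iron handling in 4 lists, 70 were tested, of which 6 were called higher and 8 lower on the FFD, beside 13.2% higher and 4.99% lower over all tested genes. Their median log2FC was -0.12 beside -0.03 over all tested genes. Of the 27 genes of hepcidin control, 25 were tested, 4 were called lower and 0 higher; by edgeR at an unadjusted p below 0.05, 9 were lower and 4 higher, and DESeq2 and limma-voom also called 4 lower and 0 higher. Scaling by library totals instead called 3 higher and 1 lower. The median log2FC of this list was -0.14.

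The calls in hepcidin control included a further BMP ligand, a receptor and a SMAD. Smad9 fell from 17.7 ± 7.15 to 6.76 ± 2.21 CPM (SD, n = 12; log2FC -1.39, FDR = 2.3e-05), and Bmp2, a ligand of endothelial cells, from 24.8 ± 6.98 to 15.5 ± 4.18 (log2FC -0.68, FDR = 0.0019). Acvr2a, a receptor for BMP and activin ligands, fell from 18.3 ± 4.70 to 11.8 ± 1.98 CPM (log2FC -0.63, FDR = 0.00066), and Creb3l3, a hepatocyte transcription factor of the endoplasmic reticulum that can act on Hamp, from 393 ± 41.3 to 270 ± 32.7 (log2FC -0.54, FDR = 9.5e-06). Tmprss6, the protease that restrains hepcidin and the gene of this list with the highest level, had 506 ± 62.4 CPM on the FFD and 646 ± 55.3 on the control diet (log2FC -0.35, FDR = 0.00073), short in fold. The 2 genes outside the test were Erfe and Il6.

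Of the 13 genes of iron uptake, transport and export, 4 were called higher and 1 lower, with a median log2FC of 0.25. DESeq2 and scaling by library totals each called 5 higher, and a fit with the replicate number as a block called 3, losing Slc22a17 (0.88, FDR = 0.012). Lcn2 (lipocalin 2, which binds iron-laden siderophores) rose from 25.1 ± 18.0 to 217 ± 197 CPM (log2FC 3.11, FDR = 8.8e-06), with 798 CPM in FFD replicate 3 and 60.5 to 279 in the other 11, and without that library the log2FC was 2.71. Its receptor Slc22a17 rose from 1.68 ± 0.61 to 3.28 ± 1.79 CPM (log2FC 0.96, FDR = 0.0041). Slc11a2, the DMT1 importer, rose with a log2FC of 0.59 (FDR = 0.0014) and Steap3, an iron reductase, also with 0.59 (FDR = 0.00014), while Slc39a14, the importer of iron not bound to transferrin, fell from 270.4 ± 61.0 to 153 ± 44.2 CPM (log2FC -0.82, FDR = 0.00017). The genes with the highest levels, Trf (transferrin; log2FC 0.22, FDR = 0.24) and Cp (ceruloplasmin; 0.20, FDR = 0.088), did not pass.

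Of the 21 genes of heme and hemoglobin handling, 2 were called higher and 2 lower. Hmox1 (heme oxygenase 1, which frees iron from heme) rose from 20.4 ± 4.49 to 49.6 ± 17.03 CPM (log2FC 1.28, FDR = 1.3e-06), and Slc48a1, a heme transporter of lysosomes, rose with a log2FC of 0.50 (FDR = 5.8e-05) that lay at the limit on fold and fell short of it in 12 of the 24 fits without 1 library. Cd163, the hemoglobin scavenger receptor of macrophages, fell from 17.1 ± 11.4 to 3.03 ± 3.10 CPM (log2FC -2.51, FDR = 0.00053), with the highest FFD value, 11.4, in replicate 3. Cpox, an enzyme of heme synthesis, fell with a log2FC of -0.55 (FDR = 0.0022), and without FFD replicate 9 its value of -0.497 lay just inside the limit on fold and was not called. Hpx (log2FC 0.38, FDR = 0.065) and Hp (haptoglobin; 0.44, FDR = 0.020), the most abundant, did not pass, although Hp did without control replicate 10 (0.50, FDR = 0.0066) or 12 (0.51, FDR = 0.0072). Of the fits without 1 library, Flvcr2, a heme transporter, passed in that without control replicate 6 (0.94, FDR = 0.0079), and Slc39a8 of the uptake list in that without FFD replicate 1 (-0.50, FDR = 0.0023). Flvcr2 also passed with DESeq2 (0.83, FDR = 0.0083), library totals (1.03, FDR = 0.0052), the replicate block (0.94, FDR = 0.00047), the set as a term (0.91, FDR = 5.6e-05) and each set fitted alone, and Slc39a8 in the Ddx3y libraries fitted alone (-0.67, FDR = 0.00079).

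Of the 12 genes of iron storage, sensing and mitochondrial iron, 11 were tested and 1 was called. Ireb2, which encodes an iron regulatory protein, fell from 87.6 ± 11.2 to 56.8 ± 14.7 CPM (log2FC -0.63, FDR = 0.00019). Aco1, which encodes the other, had a log2FC of -0.12 (FDR = 0.27), and Pcbp2, an iron chaperone that loads ferritin, -0.22 (FDR = 0.012). By edgeR 0 genes of this list were called higher, 1 was higher at an unadjusted p below 0.05, and DESeq2 and limma-voom also called 0, with 2 and 0 at an unadjusted p below 0.05. Leaving out FFD replicate 3 left all 14 calls of the 4 lists in place.

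**Figure D5:**
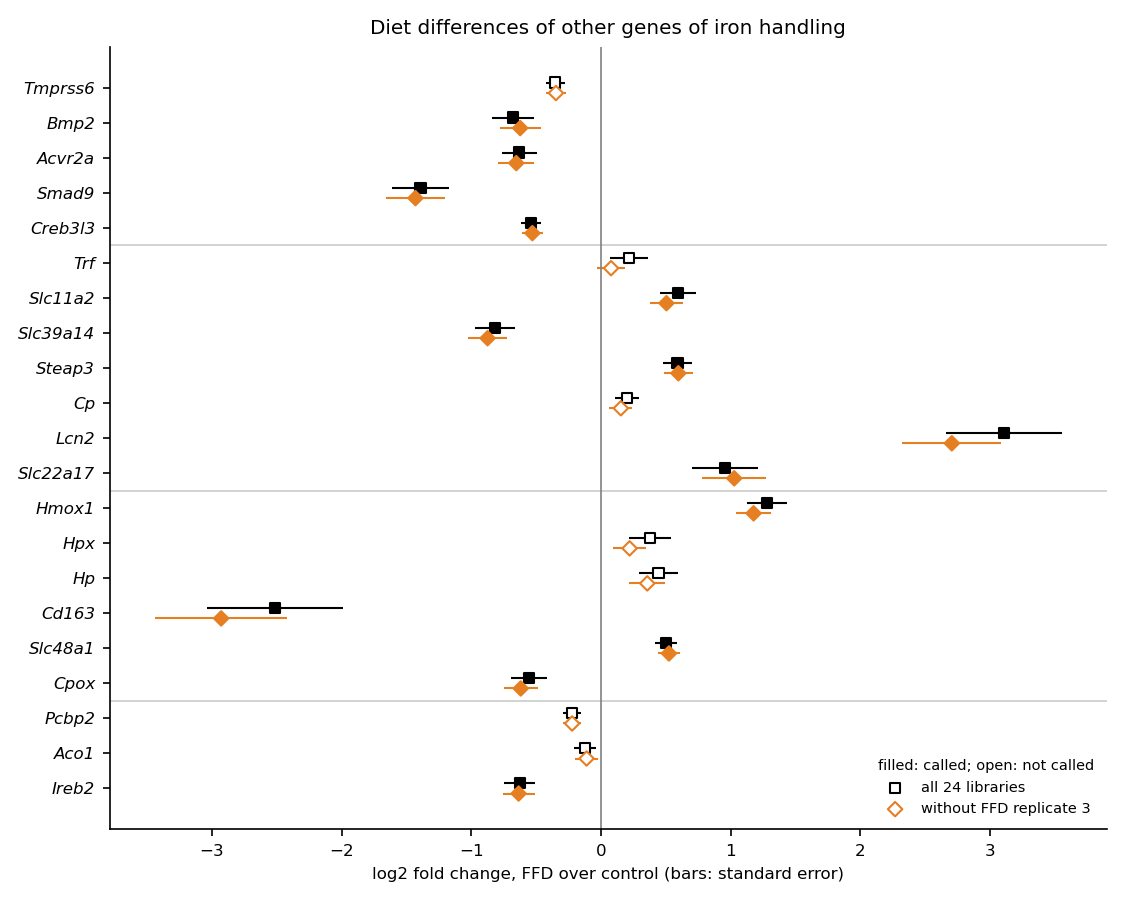
Log2 fold changes of FFD over control with standard errors for the called genes of the 4 iron lists and the 2 of each list with the highest level, over all 24 libraries (black squares) and without FFD replicate 3 (orange diamonds); filled symbols passed the threshold and grey lines part the lists. Lcn2 has 3.11 and 2.71, Cd163 -2.51 and -2.93, and no filled symbol opens when the library is left out.

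Markers of liver cells moved with the diet beside these genes, again to be read beside 13.2% of tested genes called higher and 4.99% lower. Of 6 hepatocyte markers, 5 were called lower and 1 higher, while library totals called 1 lower and 1 higher and the Xist libraries fitted alone 1 lower and 0 higher. Their summed level was 38093 to 88190 CPM on the FFD and 76354 to 126727 on the control diet. All 5 markers of monocyte-derived macrophages were called higher, with sums of 97.1 to 239 against 17.3 to 52.6 CPM and no overlap. Of 5 stellate cell markers 3 were called higher (271 to 575 against 136 to 325 CPM), and of 6 Kupffer cell markers 2 were (335 to 989 against 139 to 590 CPM). Sinusoidal endothelial markers, the cells in which Bmp6 is mainly made, had sums of 194 to 381 against 183 to 374 CPM, and 1 of 7 was called, Stab2, which was not called without FFD replicate 3 (log2FC 0.44, FDR = 0.011).

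Of the 7 acute-phase genes 3 were called lower, the fibrinogen genes Fga, Fgb and Fgg with log2FC between -0.65 and -0.56, and without FFD replicate 3 Apcs was too (-0.83, FDR = 0.0032). Saa1 (log2FC 1.27, FDR = 0.052) and Saa2 (1.20, FDR = 0.095) did not pass, but both were called higher by limma-voom (1.65 and 1.71), with the replicate block (1.61 and 1.70) and in the Xist libraries fitted alone (2.87 and 3.07). In that last fit no acute-phase gene was called lower, and with library totals none of the 7 was called in either direction. Of the 5 red blood cell markers, Slc4a1 was called higher (log2FC 4.78, FDR = 0.0024), and it was not called without FFD replicate 3 (log2FC 0.84, FDR = 0.25) or with the replicate block (1.70, FDR = 0.16). DESeq2 and limma-voom called 0 of the 5, and at an unadjusted p below 0.05 DESeq2 had 0 higher and 3 lower. Library totals and the set as a term each called 1 higher. Without FFD replicate 3 the summed level had a median of 382 CPM on the FFD, against 530 on the control diet. The part of any of these cells in the levels of Hamp, Bmp6, Tfr2 or the ferritin genes was not tested.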

How the data were processed

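Whole-liver RNA of 24 mice was sequenced after poly(A) selection, and the authors deposited 1 table of raw read counts per gene. Per the labels, the submitters' processing notes name bcl2fastq, STAR 2.7.3a and mm10, and the counting program and annotation of the mouse table are not given in the sources used here. The study's methods name an exon quantification pipeline, Ensembl and PISCES only for reads aligned to the human genome. Counts summed to between 14468418 and 22112552 per library, which limits precision most for genes with few counts. Identifiers without a symbol held 0.072% of counts.

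The deposited counts of the 12 FFD and 12 control libraries were scaled by TMM and compared by the quasi-likelihood test of edgeR 4.0.16 (R 4.3.3), with diet as the term. The test covered the 17913 genes that had a count of 1 or more in 12 or more libraries, and p-values were adjusted over all of them by the Benjamini-Hochberg method (FDR). Differences were called at an FDR of at most 0.01 and an absolute log2FC over 0.5. The sets of libraries were split at 1000 Xist counts, and a fit with diet, set and their interaction gave values within sets. Nothing in the labels ties a library to a sex. The tests weigh a difference against the spread between these mice, which in the fit of diet alone includes any difference between the sets. Library pairs of a diet differed beyond sampling noise, so none was merged.

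DESeq2 1.42.0, limma-voom 3.58.1, other scalings, filters and thresholds, the replicate number as a block and leaving out each library were alternatives. The replicate numbers of the diets were taken not to pair the mice. The test was checked on simulated counts, where 122 of 198 genes changed by 1 on the log2 scale were recovered for the diet, with 0 false calls. Random permutations were drawn with numpy 2.4.6, and scipy 1.17.1 supplied the ranks for Spearman's rho.

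The 10 genes, the iron and marker lists, the sets and the tests were chosen with earlier results of these data known. Named were all 10 genes, every called gene of the iron lists, the 2 of each list with the highest level, the 5 genes most like Hamp and Hamp2 and the markers. Genes named for leaving a list's calls unstable, those outside the test and the extremes of FFD replicate 3 were picked after their values were seen. Of the red blood cell markers, 1 is not reported here.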

Additional observations from a re-analysis of the deposited data

Results flagged for a closer look

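Each of the 10 genes was checked in each of the 4 groups of diet and set, 40 checks of 6 libraries, for a highest or lowest library whose gap to the next exceeded the 95% critical value of Dixon's test. Chance gives such a gap in about 5% of checks, and 10 were found, 8 of them in FFD replicates 3 and 9. The value given is the gap over the range of the group, both taken on the log2 scale of the permutation tests. The levels beside it are in plain CPM, on which the value would differ.

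FFD replicate 3 was lowest for Hamp (0.837; 1.71 CPM against 187 to 429 in the other 5 libraries), for Hamp2 (0.795; 0.853 against 71.2 to 185) and for Bmp6 (0.696; 1.28 against 4.24 to 6.53), and highest for Tfrc (0.705; 131 against 10.6 to 22.7). FFD replicate 9 was highest for Bmp6 (0.763; 12.3 CPM against 4.97 to 6.23) and Id1 (0.735; 27.1 against 10.8 to 13.8), and lowest for Tfrc (0.723; 7.48 against 12.5 to 15.2) and Fth1 (0.705; 1495 against 1925 to 2139). Control replicate 10 was lowest for Bmp6 (0.645; 3.36 CPM against 6.49 to 9.08), and FFD replicate 4 was lowest for Fth1 (0.760; 1872 against 2053 to 2113).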

How the results depend on the processing

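Hamp kept its direction and call in all 24 fits without 1 library (-2.04 to -1.69) and in every other alternative but the fit of the Xist libraries alone (-1.77, FDR = 0.074). The Ddx3y libraries alone, with as many mice, called it lower (-2.06, FDR = 0.0067), and the cause of this difference was not tested. Leaving out 1 library gave log2FC of -0.86 to -0.60 for Bmp6, -0.97 to -0.63 for Id1, -0.55 to -0.45 for Smad7, -0.52 to -0.41 for Tfr2, 0.27 to 1.16 for Tfrc, -1.97 to -1.25 for Hamp2, -0.20 to -0.08 for Slc40a1, 0.37 to 0.44 for Fth1 and 0.05 to 0.19 for Ftl1. It left 1 to 4 of the 10 genes called lower and 0 higher (4 without FFD replicate 9, 3 without control replicate 11, and 2 without FFD replicates 1, 3 or 4 or control replicates 4, 10 or 12), and 5 to 7 genes of the iron lists higher and 7 to 9 lower. For the difference between the sets it gave -0.56 to 0.25 for Hamp, 0.71 to 1.30 for Hamp2, 1.04 to 1.42 for Bmp6, 0.45 to 1.17 for Id1, 0.25 to 0.51 for Smad7, -1.47 to -0.04 for Tfrc, -0.69 to -0.55 for Tfr2, 0.29 to 0.45 for Slc40a1, -0.11 to 0.05 for Fth1 and -0.24 to 0.09 for Ftl1. Signs turned there without control replicate 10 for Hamp (0.25), Fth1 (0.046) and Ftl1 (0.089) and, for Fth1, without control replicates 1 (0.02) or 11 (0.02).

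For the diet, DESeq2 called Id1 (-0.79), the set as a covariate called Id1 (-0.83), and library totals called Tfrc (1.28) and Fth1 (0.69) and turned Slc40a1 (0.12). Leaving out FFD replicate 3 and control replicates 10 and 11, chosen after seeing the data, called Bmp6 (-0.72) and Tfr2 (-0.52). The Xist libraries alone called Bmp6 (-1.32) and Id1 (-1.19), and the Ddx3y libraries alone called Tfr2 (-0.78) and turned Bmp6 (0.0019) and Slc40a1 (0.11). Of the 10 genes, 2 were lower with DESeq2, with the set as a covariate and in the Xist or the Ddx3y libraries alone, 3 without the 3 libraries, and 5 at an FDR of 0.05 with no limit on fold. Library totals and that FDR each gave 2 higher. Of the iron lists, 16 were higher and 3 lower with library totals, 13 and 18 at that FDR, and 2 and 2 with a log2 limit of 1, and 4 were lower in the Xist libraries alone.

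For the difference between the sets, Tfr2 passed with DESeq2 (-0.61), limma-voom (-0.61), edgeR's default filter (-0.64) and without the 3 libraries (-0.56), and Bmp6 with DESeq2 (1.35) and library totals (1.66). Signs turned for Hamp with limma-voom (1.09) and library totals (0.17), for Tfrc without the 3 libraries (0.26), for Fth1 with library totals (0.31), at least 10 counts in every library (0.011) and without the 3 libraries (0.15), and for Ftl1 with library totals (0.24) and without the 3 libraries (0.12). Deviations from the diet means alone brought Hamp with Bmp6 (r = 0.55), Hamp with Hamp2 (0.42) and Bmp6 with Smad7 (0.45) past 0.05. The cause of these changes was not tested.

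With the replicate number as a block Hamp was -1.91 (FDR = 0.0085) and Hamp2 -1.34 (FDR = 0.045), and the block changed no call of the 10 genes. In the iron lists it lost Slc22a17 (0.88, FDR = 0.012) and gained Flvcr2 (0.94, FDR = 0.00047), and among the markers it lost Stab2 and Slc4a1 and gained Saa1 and Saa2. Mice of the same number deviated together with r between -0.09 and 0.36, and 2 of 12 numbers matched their own best, so the numbers were not taken as pairs. Over all genes, edgeR called 2372 higher and 894 lower, library totals 3827 and 226, and at least 10 counts in every library 1226 and 604. For the difference between the sets these were 461 and 263 by edgeR, 881 and 432 by DESeq2, and 1200 and 118 with library totals. Depth limits Bmp6, Smad7, Tfrc and Id1, which had the fewest counts.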
